A study of Mus musculus with 12 samples.

Results

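The genes described here are 10 that handle glucose carbon between its entry into glycolysis and the release of lactate: Ldha, Slc16a1, Pgam1, Aldoa, Pgk1, Eno1, Gapdh, Tpi1, Hk1 and Hk2. They were chosen by symbol, and all their 19 non-control probes are accounted for, out of 41174 probes and 17016 gene symbols on the array. Islets were cut by laser from frozen pancreas sections of female mice aged 12 weeks, 6 of the diabetes-prone NOD strain and 6 of NOD.B10, the healthy control strain, which shares the NOD background and differs in its MHC haplotype. The labels name no transgene and no treatment. Amplified islet RNA was labelled with Cy5 and hybridised against a Cy3-labelled universal mouse RNA on 2-colour Agilent arrays, 1 array per mouse and with no dye swap.

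Glycolysis splits glucose into pyruvate. Hexokinases phosphorylate the sugar, aldolase cleaves the hexose, triosephosphate isomerase makes both fragments usable, and glyceraldehyde-3-phosphate dehydrogenase, phosphoglycerate kinase, phosphoglycerate mutase and enolase carry the triose onward. Lactate dehydrogenase A then turns pyruvate into lactate, and the monocarboxylate transporter MCT1, the product of Slc16a1, moves lactate and pyruvate across the plasma membrane. Beta cells are known to keep Ldha and Slc16a1 nearly silent, so that pyruvate goes to the mitochondria and circulating lactate or pyruvate does not set off insulin release; such genes are called disallowed. Hk1 and Hk2, the hexokinases with high affinity for glucose, are likewise kept low in beta cells.

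The starts of Ldha, Slc16a1 and Hk2 are shown because these 3 genes gave more islet signal in NOD on the scale used below. Each is the stretch of 250 bases upstream of a transcription start in RefSeq's annotation of GRCm38.p6, 5′ to 3′ on the gene's strand. Capitals mark matches on either strand to the hypoxia response cores ACGTG, which the E-box CACGTG contains, and GCGTG. RefSeq gives Ldha 2 such windows, and the one printed was chosen after its matches were seen.
Ldha, chr7:46845554-46845803, plus strand: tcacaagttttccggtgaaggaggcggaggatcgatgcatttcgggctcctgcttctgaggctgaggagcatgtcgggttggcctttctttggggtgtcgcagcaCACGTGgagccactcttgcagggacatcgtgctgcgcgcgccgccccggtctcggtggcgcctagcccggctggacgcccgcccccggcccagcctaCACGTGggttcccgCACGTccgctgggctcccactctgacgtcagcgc
Slc16a1, chr3:104638414-104638663, plus strand: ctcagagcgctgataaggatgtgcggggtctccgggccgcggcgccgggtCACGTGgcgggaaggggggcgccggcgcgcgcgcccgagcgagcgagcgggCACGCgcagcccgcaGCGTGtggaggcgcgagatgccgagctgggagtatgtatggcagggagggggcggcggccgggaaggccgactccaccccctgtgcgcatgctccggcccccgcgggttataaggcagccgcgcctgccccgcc
Hk2, chr6:82774455-82774704, minus strand: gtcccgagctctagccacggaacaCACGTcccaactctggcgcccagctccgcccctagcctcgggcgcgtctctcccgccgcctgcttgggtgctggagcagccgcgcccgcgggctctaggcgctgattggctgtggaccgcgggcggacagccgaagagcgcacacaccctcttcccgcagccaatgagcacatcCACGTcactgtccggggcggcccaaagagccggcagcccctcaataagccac
The printed Ldha window held 2 copies of CACGTG and 5 matches to ACGTG when both strands are counted, since each E-box holds 1 on either strand. The other Ldha window, chr7:46846832-46847081, held 1 match to GCGTG and none to ACGTG. The Slc16a1 window held 1 copy of CACGTG, 2 matches to ACGTG and 2 to GCGTG. The Hk2 window held 2 matches to ACGTG and no E-box. Among 32851 RefSeq windows of this length, 16.6% held ACGTG, 28.2% held GCGTG and 6.02% held CACGTG. All 10 genes had a window, 16 in all, and of these 16 windows 7 held ACGTG, 8 held GCGTG and 2 held CACGTG. Some of these windows overlap, and a site in the overlap counts for each. Such sites are the ACGTG of Aldoa and 2 GCGTG matches of Eno1. A gene with several windows has more chances of a match, and by gene ACGTG was found for 6 of the 10, GCGTG for 6 and CACGTG for 2, Ldha and Slc16a1. The letters describe these windows and are no evidence of binding.

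Islet signal was brighter on the NOD arrays throughout, and this bears on every value below. Cy5 was well above the local background, by the scanner's mark, for 10.7% to 17.3% of probes on NOD arrays and for 3.96% to 7.88% on NOD.B10 arrays, while the reference channel was above it for 46.7% to 54.4% on all 12. Members are therefore given on 2 scales. The log2 ratio of Cy5 to Cy3, after background correction and loess normalisation within each array, was compared with limma over the 5347 probes whose Cy5 was above background on at least 4 arrays. Brightness-scaled signal is background-subtracted Cy5 as a percentage of the array's median over the 1083 probes above background on all 12 arrays, a median that ran from 67.2 to 208 scanner units in NOD and from 22.3 to 48.0 in NOD.B10. It was compared with an exact permutation test over the arrays, whose smallest p is 0.00216. Both sets of p values were adjusted over all tested probes by the Benjamini-Hochberg method, at a threshold of 0.05.

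Markers of islet cells and of leukocytes were both measured. Ins2, Gcg and Sst were above background on all 12 arrays, whereas the probes of the beta cell genes Mafa, Pdx1, Slc30a8 and Ucn3 were above it on none. All 9 tested leukocyte markers, of 12 listed, rose on both scales. Over all tested probes 20.0% rose in log2 ratios and 21.6% in scaled signal. Ptprc, Coro1a, Laptm5, Cd3d, Ms4a1 and Cd74 were above background on 0 NOD.B10 arrays and entered the test through NOD alone. The count therefore supports nothing. Summed background-subtracted Cy5 of the 12 listed markers was 1517 to 12037 units on NOD arrays against 36.8 to 134 on NOD.B10 arrays. Cd3e and Cd79a, which define T and B cells, were above background nowhere, whereas Cd3d and Ms4a1 were above it on 6 NOD arrays and 0 NOD.B10 arrays. The 6 tested beta cell markers all fell in brightness-scaled signal, against 5.98% of all tested probes, and 3 of the 6 fell in log2 ratios, against 16.4%. In such tissue, fewer cells of a type and less RNA per cell cannot be told apart. With 1 array left out at a time, 3 to 6 of the beta cell markers were still called lower in scaled signal and 7 to 9 of the leukocyte markers higher. NOD mouse 3 stood apart from its strain: scaled Slc2a2 was 203% there, against 10.1 to 39.6% in the other NOD mice and 209 to 336% in NOD.B10, and Ins1 was 5065%, within the NOD.B10 range of 3289 to 7070%. Nkx6-1 and G6pc2 also lay within the NOD.B10 range there. Ins2, at 21996%, and Iapp, at 580%, lay below their NOD.B10 ranges (from 30159% and 601%). The same mouse had the lowest Ptprc of its strain, 221% against 285 to 738%. Srgn, Cd3d and Ms4a1 were also lowest there, but Coro1a, Laptm5, Lyz2, Ctss and Cd74 were not. NOD mouse 3 had the lowest scaled Ldha as well, and without that mouse Ldha was 3.88-fold higher in NOD. The part of either shift in the members' values was not tested.

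Of the 10 genes, 6 passed the filter on dim probes, with 8 probes: Ldha, Slc16a1, Hk2, Aldoa, Pgk1 and Pgam1. In log2 ratios 1 of the 6 rose in NOD, against 20.0% of all tested probes, and 2 of the 6 fell, against 16.4%. In brightness-scaled signal 3 of the 6 rose, against 21.6%, and none fell, against 5.98%. Of these 3, Slc16a1 and Hk2 passed the filter through NOD arrays alone, so the count supports nothing. The median log2 difference of the 6 genes was -0.40, and that of all tested genes was -0.0079. Ldha was the member called higher on both scales. Slc16a1 was called lower on one and higher on the other, Hk2 was called higher and Pgam1 lower on 1 scale each, and Aldoa and Pgk1, read by their brighter probes, passed neither test.

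**Figure D1:**
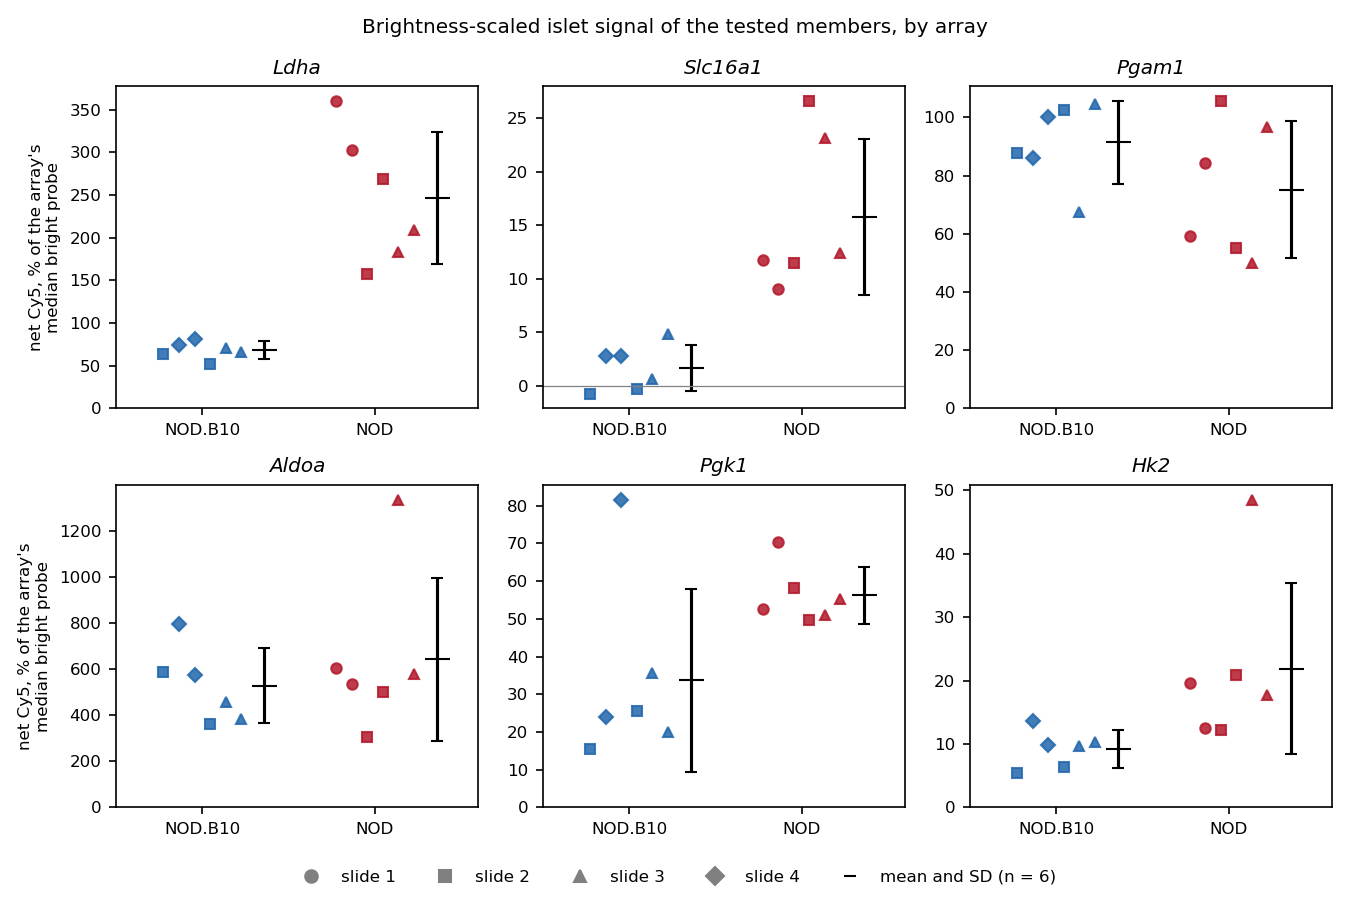
Brightness-scaled Cy5 signal of the 6 tested members on each array, as a percentage of the array's median over probes above background on all 12 arrays. Points are mice, with the shape giving the slide, and bars show the mean and SD of 6 mice. The strains do not overlap for Ldha and Slc16a1, and single mice stand far off for Aldoa and Hk2 (NOD mouse 5) and for Pgk1 (NOD.B10 mouse 3). How many of all probes split without overlap was not counted.

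Ldha, the enzyme that reduces pyruvate to lactate, gave the clearest difference. Its brighter probe had background-subtracted Cy5 of 577, 629.9, 159, 249.5, 123 and 278 units on NOD arrays 1 to 6. On NOD.B10 arrays 1 to 6 the same probe had 25.5, 29.7, 25.6, 16.9, 34.2 and 14.8 units. Every NOD array lay above every NOD.B10 array, and all 12 were above background. The arrays' medians over bright probes did not overlap either, at 67.2 to 208 units in NOD and 22.3 to 48.0 in NOD.B10. How many of all probes split without overlap was not counted, and 21.6% of tested probes were called higher in scaled signal. After brightness scaling the NOD arrays ran from 157 to 359.5% with a median of 239%, and the NOD.B10 arrays from 51.8 to 81.3% with a median of 68.9%, again without overlap. The means were 247 ± 77.1% and 68.3 ± 10.1% (mean ± SD, n = 6 each), 3.61-fold higher in NOD (adjusted p = 0.0161, exact permutation test). In log2 ratios Ldha rose by 0.91 ± 0.15 (SE; limma adjusted p = 7.139e-04), from -0.53 ± 0.16 to 0.39 ± 0.35 (SD). The size depended on the treatment: 0.67 with a smaller background offset (limma adjusted p = 0.0249), and, relative to the median of all tested probes, 0.31 in the scanner's ratios, 0.87 in Cy5 alone and 1.76 with median centring. The limma tests of these last 3 are of the unshifted differences (adjusted p = 0.0242, 5.967e-05 and 3.173e-05).

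Ldha kept its direction under each alternative that was run. The scaled fold was 3.67 within slide 2 and 2.85 within slide 3, the slides that held 2 mice of each strain, where 2 against 2 cannot reach the threshold (smallest p 0.333). With any 1 array left out it was 3.28 to 3.88. Without slide 4, which held only NOD.B10 mice and was scanned on another day, it was 3.89-fold with an adjusted p of 0.0581 in the exact permutation test, and the limma fit on log2 ratios gave 0.89 with an adjusted p of 0.0064. With the share of bright spots on each array as a covariate, the limma difference was 0.53 and no longer passed (adjusted p = 0.779). That share did not overlap between the strains, so array brightness and strain cannot be told apart in that fit.

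Ldha lit the reference channel far more than the islet channel. The Cy3 signal of its probe was 26610 to 42859 units, and Cy5 was 0.313 to 2.19% of Cy3 on NOD arrays and 0.0451 to 0.0982% on NOD.B10 arrays. As a yardstick for reference light seen in the islet channel, the 5th percentile of the same share among probes with Cy3 above 10000 units was 0.0366 to 0.0566% on NOD arrays and 0.0217 to 0.0365% on NOD.B10 arrays. The NOD.B10 values of Ldha thus lay near this low edge, and the NOD values well above it. With that share of Cy3 subtracted on each array, Ldha was 5.74-fold higher in NOD (adjusted p = 0.0165, exact permutation test). The second Ldha probe, with Cy3 of 19.0 to 91.7 units, was above background in Cy5 on no array and gives no second reading.

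**Figure D2:**
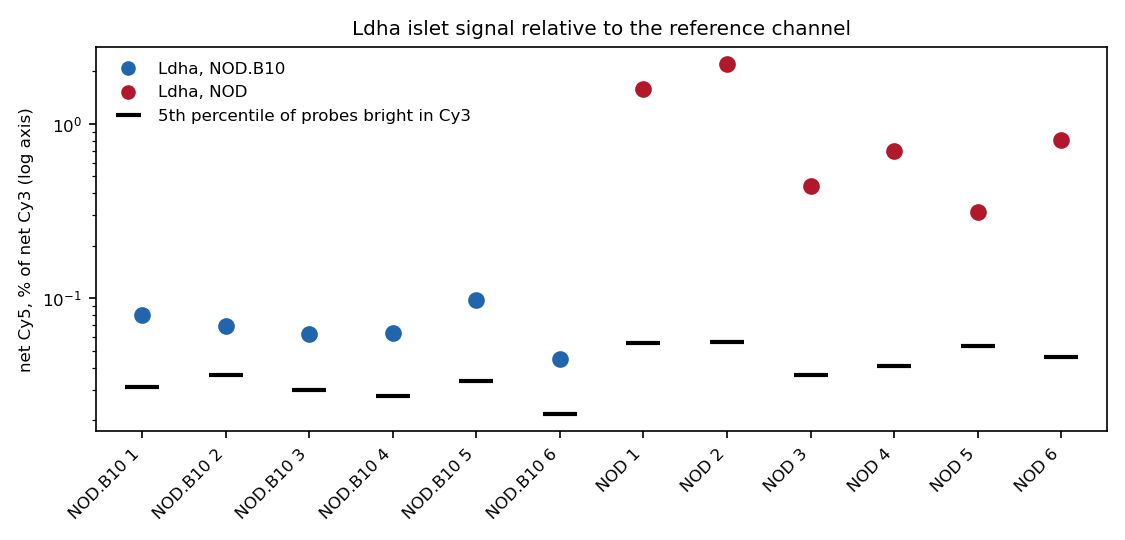
Background-subtracted Cy5 of the brighter Ldha probe as a percentage of its Cy3 on each array, on a log axis. Dots are mice, and black bars are the 5th percentile of the same percentage among probes with Cy3 above 10000 units. NOD mice lie at 0.313 to 2.19% and NOD.B10 mice at 0.0451 to 0.0982%, above their bars but nearer to them than the NOD mice.

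Slc16a1, the lactate and pyruvate carrier, was above background in NOD islets alone. Its leading probe was above background on 6 of 6 NOD arrays and on 0 of 6 NOD.B10 arrays. Background-subtracted Cy5 was 18.9, 18.9, 11.6, 24.8, 15.6 and 16.5 units on NOD arrays 1 to 6, and from -0.297 to 1.12 units on NOD.B10 arrays. The groups did not overlap, but the signals are faint: the lowest signal marked as above background on any array was 7.49 to 8.41 units. A total of 510 of the 5347 tested probes, 9.54%, showed the same split of arrays, and a probe detected in 1 strain passed the filter through that strain. Scaled by brightness, Slc16a1 was 15.8 ± 7.26% in NOD and 1.66 ± 2.16% in NOD.B10 (mean ± SD, n = 6 each; adjusted p = 0.0161, exact permutation test). No fold is given, since the lower bound against the dimmest detectable NOD.B10 signal was under 1. Of 17 alternatives for this scaled difference, 3 no longer passed, among them slides 2 and 3 alone, which cannot reach the threshold. It passed with any 1 array left out (adjusted p up to 0.0342, exact permutation test).

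The log2 ratios of Slc16a1 ran the other way. They were -0.82 ± 0.32 in NOD and -0.40 ± 0.17 in NOD.B10 (SD), a difference of -0.41 ± 0.15 (SE; limma adjusted p = 0.0437), which would read as lower in NOD. The sign turned to higher in the scanner's own processed ratios (1.30 relative to the median of all probes, limma adjusted p = 4.284e-04) and in Cy5 alone (0.20 on the same footing, limma adjusted p = 0.0027). The limma tests of both are of the unshifted differences. With a smaller background offset the log2 difference was -0.26 and did not pass (limma adjusted p = 0.47). Slc16a1 was 1 of 16 tested probes called lower in log2 ratios and higher in scaled signal. The call lower was lost with slide as a fixed term (-0.20, limma adjusted p = 0.406), without slide 4 (-0.37, limma adjusted p = 0.151) and without any of 9 of the 12 arrays in turn. A second Slc16a1 probe was above background on 3 NOD arrays and 0 NOD.B10 arrays, with 2.95 to 13.7 units in NOD and -1.19 to 2.03 in NOD.B10, and the remaining probe on no array.

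Hk2, a hexokinase with high affinity for glucose, showed the same split, above background on 6 NOD arrays and 0 NOD.B10 arrays. Hk2 therefore passed the filter through NOD alone, and the part of array brightness in this split was not tested. Its Cy5 was 31.4, 26.0, 12.3, 19.5, 32.5 and 23.5 units on NOD arrays 1 to 6 and 2.09 to 5.45 units on NOD.B10 arrays. After scaling, NOD ranged from 12.2 to 48.4% and NOD.B10 from 5.39 to 13.7%, and the ranges met at their edges. The means were 21.9 ± 13.5% and 9.21 ± 2.97% (mean ± SD, n = 6 each; adjusted p = 0.0306, exact permutation test), with no fold given because the lower bound was under 1. The call was lost without slide 4 (adjusted p = 0.105, exact permutation test) and without any single NOD.B10 array in turn, with adjusted p of 0.0535 to 0.0707. Without slide 4 the smallest p is 0.00476 and Ldha did not pass either, so that loss is not particular to Hk2. In log2 ratios Hk2 differed by -0.41 ± 0.20 (SE; limma adjusted p = 0.127), a sign that turned to higher in Cy5 alone (0.27), with median centring (0.16) and in the scanner's ratios (0.78). Without NOD mouse 5 that log2 difference was -0.59 and passed (limma adjusted p = 0.0027). The other high-affinity hexokinase, Hk1, had 5 probes, and none was above background on any array.

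Pgam1, phosphoglycerate mutase, was above background on all 12 arrays, and the strains overlapped both before and after brightness scaling. Its Cy5 was 94.8, 176, 107, 51.3, 33.5 and 128 units on NOD arrays 1 to 6 and 35.0, 34.2, 31.5, 33.4, 32.3 and 23.3 units on NOD.B10 arrays 1 to 6. Scaled values overlapped, at 49.8 to 105.5% in NOD and 67.4 to 104.5% in NOD.B10. The means were 75.1 ± 23.5% and 91.4 ± 14.1% (mean ± SD, n = 6 each; adjusted p = 0.28, exact permutation test). In log2 ratios Pgam1 was called lower in NOD, by -0.65 ± 0.18 (SE; limma adjusted p = 0.0127), but median centring without loess turned it to 0.36 higher. With slide as a fixed term the log2 difference of Pgam1 no longer passed, as the plot of the members under other treatments shows.

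Aldoa, the main aldolase of muscle and many other tissues, varied more among NOD mice than between strains. Its brighter probe had 968, 1120.5, 308, 464, 895 and 769.6 units on NOD arrays 1 to 6, and 85.6 to 317 units on NOD.B10 arrays. In scaled signal NOD mouse 5 reached 1332.5%, where the other NOD mice lay at 304 to 603% and the NOD.B10 mice at 360.0 to 798%. The means were 643 ± 354% and 527 ± 163% (mean ± SD, n = 6 each; adjusted p = 0.703, exact permutation test). Without NOD mouse 5 the scaled ratio of NOD to NOD.B10 went from 1.22 to 0.958, and the log2 difference from -0.40 ± 0.42 (SE; limma adjusted p = 0.479) to -0.79 (limma adjusted p = 0.0342). The second probe of Aldoa gave the same picture, with 997.5% in NOD mouse 5 and a log2 difference of -0.98 ± 0.48 (SE; limma adjusted p = 0.127). Aldoa was called lower with a smaller background offset (-1.44, limma adjusted p = 0.0166). With median centring it was called higher (1.33 relative to the median of all tested probes, limma adjusted p = 4.71e-04). The test with median centring is of the unshifted difference. The direction of Aldoa thus changed with the processing.

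Pgk1, phosphoglycerate kinase, was read by 2 probes, one of them printed as 10 spots on each array. The brighter probe had 84.6, 147, 58.8, 46.1, 34.2 and 73.4 units on NOD arrays 1 to 6 and 6.20, 9.57, 25.6, 8.30, 17.1 and 4.44 units on NOD.B10 arrays 1 to 6. In scaled signal the NOD mice lay close together, from 49.6 to 70.4%, while 5 NOD.B10 mice lay at 15.6 to 35.6% and NOD.B10 mouse 3 at 81.4%. The means were 56.2 ± 7.62% and 33.7 ± 24.3% (mean ± SD, n = 6 each; adjusted p = 0.133, exact permutation test). This probe was above background on all 6 NOD arrays but on only 3 NOD.B10 arrays, those of mice 2, 3 and 5, so the ratios of means are against a group measured in part. Without NOD.B10 mouse 3 the ratio went from 1.67 to 2.33 and passed (adjusted p = 0.0323, exact permutation test). It also passed with all 12 arrays when signals were scaled by each array's total Cy5 (2.21-fold, adjusted p = 0.0295, exact permutation test).

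The probe of Pgk1 with 10 spots allowed a look at the error within an array. Its spots had a coefficient of variation of 7.54 to 27.9% on NOD arrays and 14.6 to 51.3% on NOD.B10 arrays, where signals were 4.36 to 20.0 units. This probe was scaled to 46.3 ± 5.35% in NOD and 31.7 ± 16.5% in NOD.B10 (mean ± SD, n = 6 each; adjusted p = 0.142, exact permutation test). NOD.B10 mouse 3 was again the highest of its strain, at 63.6%. Its log2 ratio was called lower in NOD (-0.40 ± 0.12, SE; limma adjusted p = 0.0189) and that of the brighter probe was not (-0.34 ± 0.14, SE; limma adjusted p = 0.0798). For both probes the sign turned to higher with median centring, in the scanner's own ratios and in Cy5 alone.

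The remaining 3 enzymes gave no test. Gapdh, the dehydrogenase often used as a reference transcript, was above background on 3 NOD arrays and 0 NOD.B10 arrays, with 4.26 to 17.6 units in NOD and -0.225 to 4.33 in NOD.B10. Its scaled signal was highest in NOD mouse 5, at 26.2%, where the other NOD mice reached 8.31%. Tpi1, triosephosphate isomerase, was above background on 1 NOD array, with 4.34 to 9.24 units in NOD and 0.903 to 2.87 in NOD.B10, and its scaled means were 6.18 ± 1.61% and 5.96 ± 4.13% (mean ± SD, n = 6 each). Eno1, enolase 1, was above background nowhere. In the reference channel Gapdh and Tpi1 were above background on all 12 arrays and Eno1 on 7, so the Gapdh and Tpi1 probes gave signal with the reference RNA. A probe that stays dim shows that nothing was detectable here, not that the transcript is absent.

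**Figure D3:**
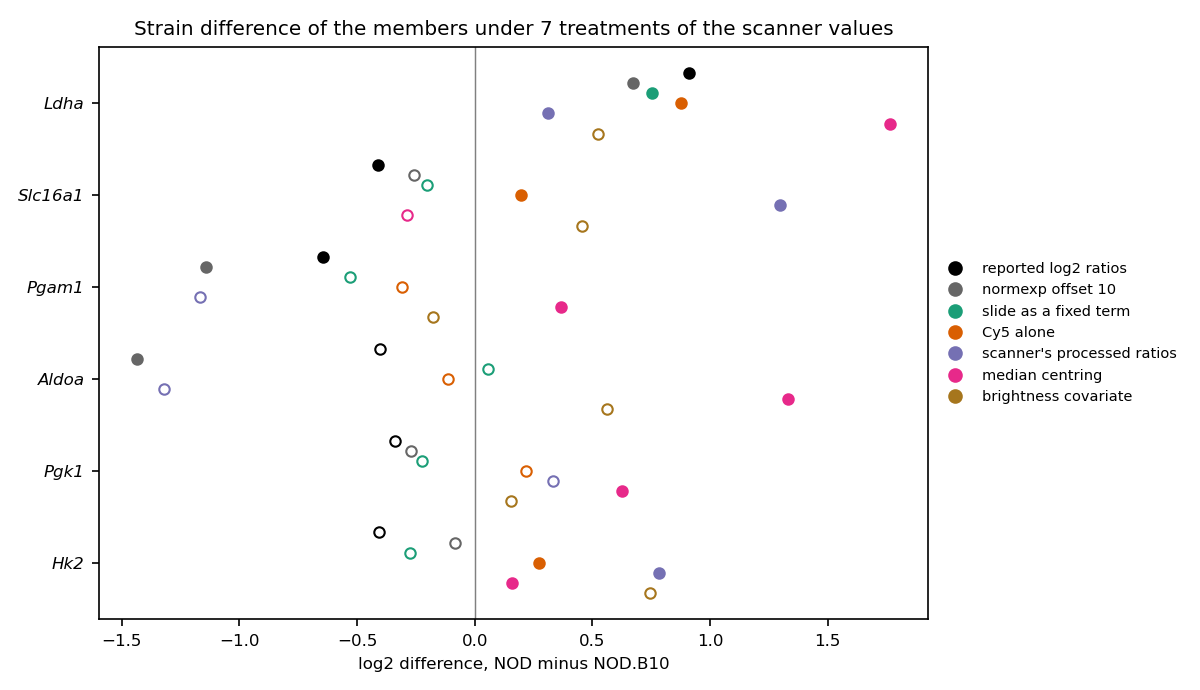
Log2 difference (NOD minus NOD.B10) of the 6 tested members under 7 treatments of the scanner values. Filled dots passed an adjusted p of 0.05 in limma, and the values of Cy5 alone, scanner's ratios and median centring are shown relative to the median of all tested probes, while their tests are of the unshifted differences. Ldha lies right of zero under each of the 7, and the other members cross zero with at least 1 of them.

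Of 24 other glycolysis enzymes and regulators, 23 were on the array and 5 were tested. In log2 ratios 2 of the 5 fell, against 16.4% of all tested probes, and none rose, against 20.0%. Eno3, the muscle enolase, differed by -1.67 ± 0.25 (SE; limma adjusted p = 3.833e-04). In scaled signal no gene of the list fell, against 5.98% of all tested probes. Eno3 had 16.8% in NOD and 34.3% in NOD.B10 and did not pass (adjusted p = 0.0799, exact permutation test), while 2 other genes of the list rose, against 21.6%. These were named after their values were seen: Gpi1, the isomerase after hexokinase, at 108% against 70.9% (adjusted p = 0.0306, exact permutation test), and Pfkfb3, a regulator of phosphofructokinase, at 33.0% against 3.41% (adjusted p = 0.0161, exact permutation test). Pfkfb3 was above background on 6 NOD arrays and 0 NOD.B10 arrays, so it passed the filter through NOD alone. Neither passed in log2 ratios. The probes of Pkm and Pfkl were among 16 genes of this list above background nowhere.

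Lactate dehydrogenase B, which favours the return of lactate to pyruvate, fell where Ldha rose. Scaled Ldhb signal was 21.4, 38.0, 16.01, 25.1, 45.8 and 37.1% in NOD mice 1 to 6 and 51.7, 53.0, 62.4, 46.9, 41.6 and 45.5% in NOD.B10 mice 1 to 6. Only NOD mouse 5 reached the NOD.B10 range. Ldhb fell by 1.44 ± 0.20 in log2 ratios (SE; limma adjusted p = 2.749e-04), and its scaled means were 30.6 ± 11.5% and 50.2 ± 7.30% (mean ± SD, n = 6 each), 1.64-fold lower in NOD (adjusted p = 0.0306, exact permutation test). The scaled call was lost without NOD mouse 4 or without NOD.B10 mouse 1, 2, 3 or 4, with adjusted p up to 0.0535. With the brightness covariate the Ldhb difference was -0.031 and did not pass (limma adjusted p = 0.903). Of the list of lactate and glucose transport, 5 of 13 genes were tested: 3 fell and none rose in log2 ratios, and 4 fell and none rose in scaled signal. Over all tested probes 16.4% fell and 20.0% rose in log2 ratios, and 5.98% fell and 21.6% rose in scaled signal. Slc2a2, the glucose transporter GLUT2 of beta cells, was 5.599-fold lower in scaled signal (adjusted p = 0.0161, exact permutation test) and -2.58 ± 0.46 in log2 ratios (SE; limma adjusted p = 0.0011). NOD mouse 3, given above, decided that fold: without it Slc2a2 was 21.8% against 291%, 13.4-fold lower (adjusted p = 0.0145, exact permutation test). Slc2a5, the fructose transporter, was 3.23-fold lower (adjusted p = 0.0306, exact permutation test). The remaining call was for Emb, a partner protein of monocarboxylate transporters named after its value was seen, at 181% in NOD and 347% in NOD.B10 (adjusted p = 0.0419, exact permutation test). The Emb call was lost without any single array other than those of NOD mouse 3 and NOD.B10 mouse 2, with adjusted p up to 0.0795. Slc2a2 also counts among the beta cell markers above. The other lactate carriers, Slc16a3 and Slc16a7, were above background on 1 NOD array each and not tested.

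Genes of pyruvate entry into the mitochondria and of the shuttles that move NADH there were tested for 14 of 26. In log2 ratios 9 of the 14 fell, against 16.4% of all tested probes, and 1 rose, against 20.0%, with a median of -0.49. In scaled signal 1 fell, against 5.98%, and 2 rose, against 21.6%. The rises, named after their values were seen, were those of Cs, citrate synthase, at 327% against 147% (adjusted p = 0.0161, exact permutation test), which also rose in log2 ratios by 0.75, and of the carrier gene Slc25a11, at 26.7% against 15.7% (adjusted p = 0.0306, exact permutation test), which was called lower in log2 ratios. The scaled call of Slc25a11 was lost without NOD mouse 2, 4 or 6 or NOD.B10 mouse 3 or 6 (adjusted p up to 0.0581). Gpd1, the cytosolic enzyme of the glycerol phosphate shuttle, fell on both scales, by -1.14 ± 0.23 in log2 ratios (SE; limma adjusted p = 0.0024) and 1.84-fold in scaled signal (adjusted p = 0.0471, exact permutation test), although median centring set its log2 difference at 0.031. The scaled call of Gpd1 was lost without any single array other than those of NOD mouse 5 and NOD.B10 mouse 6, with adjusted p up to 0.0843. Pdhb and Dld, subunits of the pyruvate dehydrogenase complex, differed by -0.64 and -0.62 in log2 ratios (limma adjusted p = 0.0015 and 0.0034). Their scaled signals, 16.3% against 9.19% for Pdhb and 16.6% against 18.8% for Dld, did not pass (adjusted p = 0.142 and 0.765, exact permutation test). Pdhb was above background on 6 NOD arrays and 0 NOD.B10 arrays, so its lower call is against undetected NOD.B10 signal. Dld was above background on 5 NOD arrays and 2 NOD.B10 arrays. Mdh1, the cytosolic malate dehydrogenase, differed by -0.83 in log2 ratios (limma adjusted p = 0.0013) and not by the scaled test (73.1% against 99.1%, adjusted p = 0.177, exact permutation test), and median centring turned its sign.

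Other genes reported as disallowed in beta cells were tested for 13 of 24. In log2 ratios 3 of the 13 rose, against 20.0% of all tested probes, and 5 fell, against 16.4%. In scaled signal 7 rose, against 21.6%, and none fell, against 5.98%. Of the 7, Arhgdib, Maf, Tgm2 and Pdgfra were above background on 0 NOD.B10 arrays and passed the filter through NOD alone, so the count supports nothing. Arhgdib, a signalling inhibitor abundant in leukocytes, had 260 ± 127% in NOD and 6.88 ± 5.53% in NOD.B10 (mean ± SD, n = 6 each; adjusted p = 0.0161, exact permutation test) and a log2 difference of 2.53 ± 0.39 (SE; limma adjusted p = 4.27e-04). Zfp36l1, an RNA-binding protein that hastens mRNA decay, had 222 ± 82.0% and 34.9 ± 7.57%, a 6.35-fold rise (adjusted p = 0.0161, exact permutation test). Cat, the catalase gene, and Mgst1, a glutathione transferase, were called lower in log2 ratios, by -1.31 and -1.59 (limma adjusted p = 5.201e-04 and 6.942e-04). Neither passed in scaled signal, at 12.0% against 11.3% for Cat and 18.9% against 26.6% for Mgst1. Cat was above background on 6 NOD arrays and 0 NOD.B10 arrays, so its lower call is against undetected NOD.B10 signal. Mgst1 was above background on 6 NOD arrays and 4 NOD.B10 arrays. The leukocyte markers given above rose in the same NOD samples as Arhgdib and Zfp36l1, and their part in these rises was not tested.

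Of 22 genes for the hypoxia-inducible factors, their regulators and non-glycolytic targets, 4 were tested, and 2 of these rose on both scales. Over all tested probes 20.0% rose in log2 ratios and 21.6% in scaled signal. Ddit4, an inhibitor of mTORC1 signalling, rose by 1.08 ± 0.15 in log2 ratios (SE; limma adjusted p = 2.534e-04) and 2.12-fold in scaled signal (adjusted p = 0.0306, exact permutation test). The scaled call of Ddit4 was lost without NOD.B10 mouse 2, 3, 4 or 5 (adjusted p up to 0.0535). Mif, a cytokine gene, rose by 0.35 ± 0.10 (SE; limma adjusted p = 0.0178) and 1.86-fold (adjusted p = 0.0241, exact permutation test). The rest of the 4 tested genes passed on neither scale, and their scaled means were lower in NOD. Probes of Hif1a, Epas1 and Arnt were above background nowhere. Of 7 pentose phosphate genes, 3 were tested and none passed on either scale. G6pdx, the entry enzyme, differed by -0.25 ± 0.10 (SE; limma adjusted p = 0.0675) and Tkt, transketolase, by -0.28 ± 0.12 (SE; limma adjusted p = 0.0775), and their signs turned to higher for G6pdx in Cy5 alone and in the scanner's ratios and for Tkt within slide 2.

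**Figure D4:**
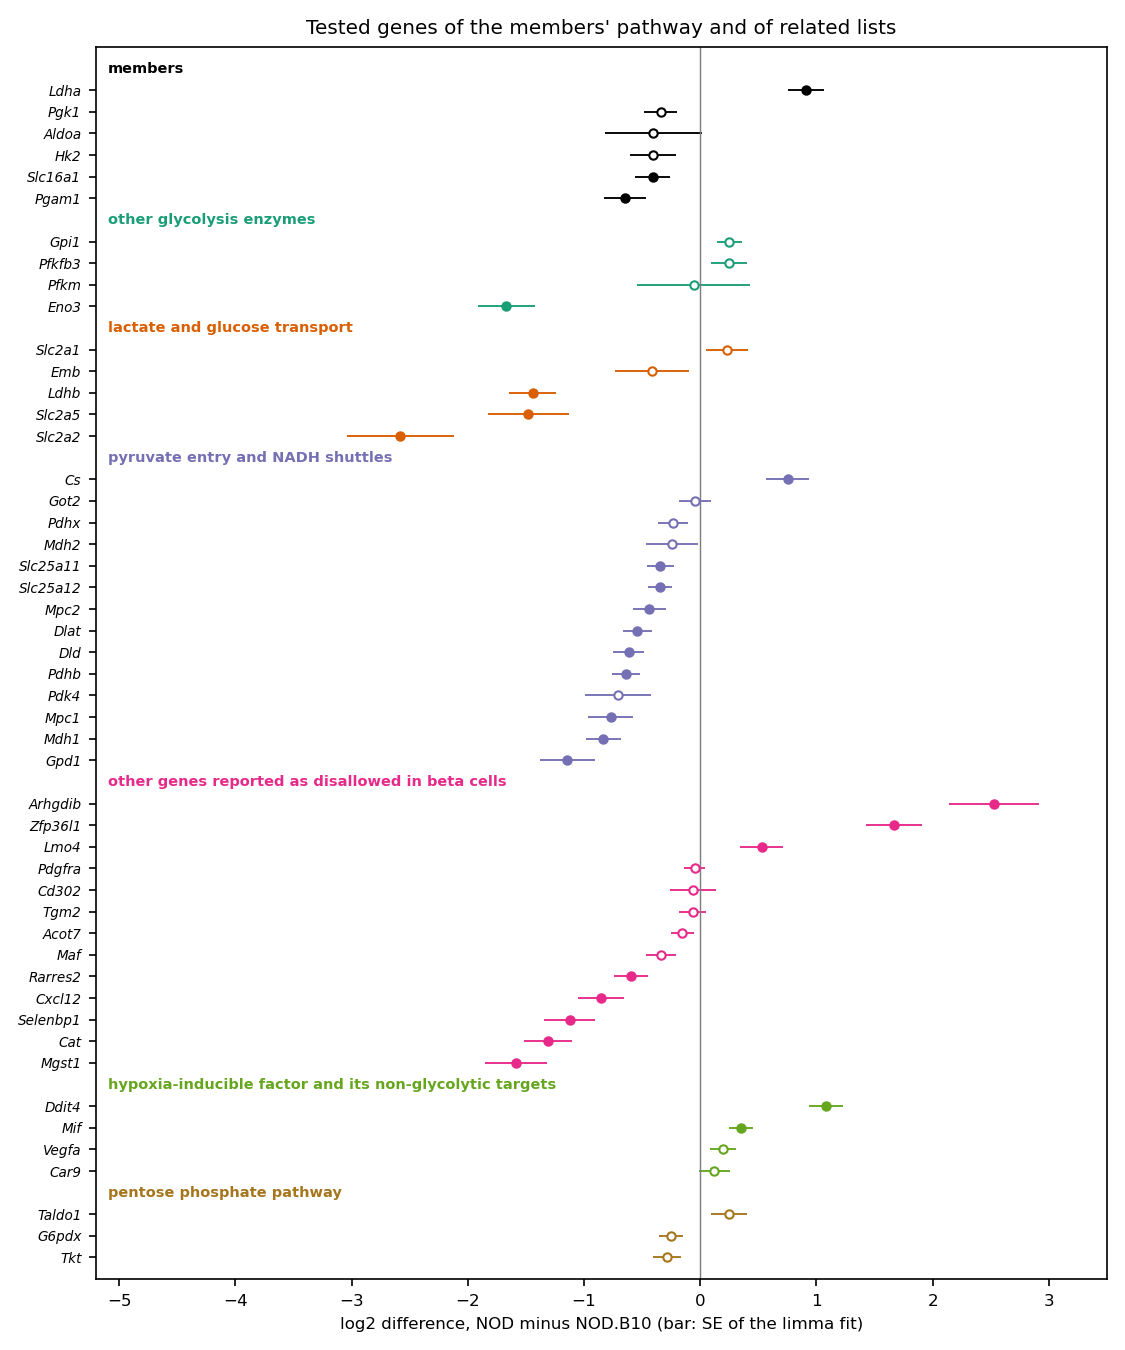
Log2 difference (NOD minus NOD.B10) of tested genes of the members and of 6 related lists, with the SE of the limma fit. Filled dots passed an adjusted p of 0.05. Ldha (0.91) and Ldhb (-1.44) lie on opposite sides of zero, and Arhgdib (2.53) and Slc2a2 (-2.58) mark the ends of the plot.

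The genes whose log2 ratios followed Ldha most closely among the mice of a strain were Cd44, Pclaf, Rhoj, Ptp4a2 and Hmgb2. The measure was Pearson's r over the 12 arrays after each strain's mean was taken off, and it was 0.92 for Cd44, 0.88 for Pclaf and Rhoj and 0.85 for Ptp4a2 and Hmgb2. These arrays share a reference and differ in brightness, and the 5 genes are the highest of all tested, so the values are a description. Cd44, a hyaluronan receptor of activated leukocytes and other cells, was 52.1, 35.6, 21.2, 48.8, 26.7 and 32.5% of the array's median in NOD mice 1 to 6. NOD mice 1 and 4 were thus among the highest for both Cd44 and Ldha, and mice 3 and 5 the lowest. Of the 5 genes, 4 rose in log2 ratios, against 20.0% of all tested probes. Cd44 rose by 0.75 (limma adjusted p = 0.0039) and Pclaf, a clamp-associated factor of DNA replication, by 0.57 (limma adjusted p = 0.0329). The phosphatase gene Ptp4a2 rose by 0.72 (limma adjusted p = 0.0011) and Hmgb2, a chromatin protein, by 1.495 (limma adjusted p = 9.826e-04). Cd44, Pclaf, Rhoj and Hmgb2 were above background on 0 NOD.B10 arrays and passed the filter through NOD alone, so the count supports nothing. Rhoj, a small GTPase gene, did not pass at 0.037 (limma adjusted p = 0.856), with a sign that turned in 6 of its alternatives. None of the other tested members went with Ldha in this way, with r from -0.52 for Pgam1 to -0.18 for Slc16a1.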

How the data were processed

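Scanner intensity values (median Cy5 and Cy3 signal and local background per spot) were deposited per array, which per the file headers came from Feature Extraction 10.5.1.1. The same deposited files hold background-subtracted intensity values, quality marks and a log10 ratio of processed Cy5 over Cy3; the deposited series table holds processed values as log2, equal to these within 0.001 for over 99% of spots. Signals were corrected with normexp (offset 50), normalised by loess within arrays and averaged over the spots of a probe in limma 3.58.1 (R 4.3.3), then fitted over 5347 probes by strain. The files hold median signals, used where mean signals are usual. Brightness-scaled Cy5 was added after the log2 ratios had been seen; its permutation test covers all 924 assignments of 6 and 6 arrays. A gene was read by its tested probe with the highest mean Cy5. Symbols came from RefSeq (GRCm38.p6) through accessions, for 24375 probes. The members and lists were chosen with earlier results of these data known. All members were named. A few genes of the lists are not reported here. Of each other list the text names up to 4 genes with the smallest p among those passing, or up to 2 where none passed, and a few further genes after their values were seen. Replicate numbers did not pair the mice (correlations of same-numbered deviations -0.15 to 0.23). No 2 arrays were duplicates (highest correlation 0.957). Array counts, not read depth, limit the precision. Alternatives covered normalisation, offset, filters, slide, weights, brightness and leaving out arrays. Scripts were tested on simulated data. Of the other marker lists, 5 endocrine genes (1 higher, 1 lower), 4 acinar (3 lower), 1 duct (0), 2 endothelial (0), 7 mesenchymal (1 higher, 1 lower), 1 erythroid (0) and 1 muscle gene (1 lower) were tested in log2 ratios. Over all tested probes 20.0% were called higher and 16.4% lower.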

Additional observations from a re-analysis of the deposited data

Results flagged for a closer look

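In each strain of 6 mice, a value was looked at again where its gap to the nearest other mouse was more than 0.625 of the whole range (Dixon's 95% limit). Chance alone marks about 1 in 20 groups, and 32 groups were tested. The log2 ratio of Aldoa in NOD mouse 5 was 3.44 by the brighter probe and 2.66 by the second, and its scaled signal was 1332.5% and 998%. Hk2 scaled signal in the same mouse was 48.4%. In NOD mouse 5 the scaled signal of Pfkm, the muscle type phosphofructokinase, was 660.2%, where the other NOD mice reached 205%, and that of the muscle myosin Myh4 was 192%, where the others reached 86.6%. The muscle markers Ckm and Acta1 were above background on no array. In NOD mouse 5 the erythroid marker Hbb-bt was 622%, where the other NOD mice reached 234%. The mesenchymal marker Acta2 was 316% there, where the others reached 126%. Pfkm, Myh4, Hbb-bt and Acta2 were not among the 32 groups and were picked from many genes. The scaled signal of Pgk1 in NOD.B10 mouse 3 was 63.6% by the probe with 10 spots and 81.4% by the brighter probe. No cause was tested for these values.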

How the results depend on the processing

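With 1 array left out at a time, 1 member was called higher each time and 1 to 4 called lower, 4 without NOD mouse 5. Members called higher and lower were 5 and 0 with median centring, 3 and 0 in the scanner's ratios, 3 and 0 in Cy5 alone, 0 and 0 within slide 2 alone, within slide 3 alone and with the brightness covariate. The number called lower was 1 without the filter, with the filter on all 12 arrays, with slide as a random block and without slide 4, and 0 with slide fixed in the model. The replicate block gave 1 higher and 2 lower, with Slc16a1 at an adjusted p of 0.0942 in limma. Median centring moved the median of all probes by 0.41 and the scanner's ratios by 0.54, and gene values under these and Cy5 alone are relative to that median. Over all tested probes, the shares called higher and lower were 20.0% and 16.4% in the log2 ratios, 48.3% and 0.0187% with median centring, 29.5% and 7.67% in the scanner's ratios and 22.2% and 6.81% in Cy5 alone.

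Log2 differences changed sign as follows. With median centring: Pgam1 0.36, Aldoa 1.33 and 0.98, Pgk1 0.63 and 0.52, Hk2 0.16, Gpd1 0.031, Mdh1 0.32, Rhoj -0.057. In the scanner's ratios: Slc16a1 1.30, Pgk1 0.33 and 0.13, Hk2 0.78, Pdhb 0.0039, G6pdx 0.33. In Cy5 alone: Slc16a1 0.20, Pgk1 0.22 and 0.12, Hk2 0.27, Pdhb 0.062, Cat 0.050, G6pdx 0.013. With a fixed slide term: Aldoa 0.055, Rhoj -0.049. Within slide 2: Tkt 0.047. Within slide 3: Aldoa 0.98 and 0.63, Rhoj -0.27. With the brightness covariate: Slc16a1 0.46, Aldoa 0.56 and 0.56, Pgk1 0.15 and 0.090, Hk2 0.74, Pdhb 0.057, Dld 0.0044, Cat 0.15, Mgst1 0.29, Pclaf -0.31, Rhoj -0.11. With 1 array left out, Rhoj ran from -0.045 to 0.10. Differences in scaled signal that changed sign were those of Aldoa, at -72.8 within slide 2 and -22.2 to 183 with 1 array left out, and of its second probe, at 73.3 when scaled by total Cy5, 364 within slide 3, 101 without slide 4 and -139 to 40.2 with 1 array left out. The cause was not tested. Of 928 comparisons with an alternative, 730 kept direction and side of the threshold, 130 no longer passed, 17 newly passed and 51 changed sign. Signals near background limit Slc16a1, Hk2, Pgk1, Gapdh and Tpi1.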
